A study of Equus caballus with 68 samples.

Results

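This report follows the genes through which cells detect lipopolysaccharide (LPS) and other microbial products, in bone marrow mononuclear cells (BMNC) of 8 Thoroughbred horses. The genes were TLR2, TLR3, TLR4, TLR6, TLR7, TLR8 and TLR9, with CD14, LY96 and MYD88, and they were taken by gene symbol. All 10 symbols were found, on 11 of the 30371 entries of the table, since CD14 stood on 2 entries (ENSECAG00000001784 and ENSECAG00000031960). The horses were 3 to 9 years old and comprised 2 mares and 6 geldings. Uncultured BMNC (0 hours) gave 8 libraries, and the others came from cells kept in undiluted fluid from the horse's own joints, where each library was 1 well of 1 horse and no animals were pooled. Normal synovial fluid (SF) came from healthy middle carpal joints, and inflamed synovial fluid (ISF) from radiocarpal joints of the same horses that had received LPS, so that fluid and joint cannot be told apart. Both fluids were cell-free when used. Each fluid had 8 libraries at 96 hours and 6 days but only 7 at 48 hours and 10 days, which made 68 libraries in all. The horse Moon was missing at 48 hours and the horse Flash at 10 days, so these times do not hold the same horses. Library depth, as reads on genes recovered from the table, was 15557807 to 35786875 with a median of 22113946. Within a group the libraries are separate wells of separate horses, so the replicate spread is that between animals. Libraries of different groups share horses and are not independent.

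Toll-like receptors (TLR) are membrane proteins of innate immune cells, foremost of monocytes and macrophages, that each bind a class of microbial molecule. TLR4 binds LPS together with LY96 (also called MD-2), and CD14 hands LPS over to this pair. TLR2 senses bacterial lipopeptides at the cell surface with TLR1 or TLR6 as its partner, whereas TLR3, TLR7, TLR8 and TLR9 lie in endosomes and bind nucleic acids. MYD88 is the adaptor that carries the signal of every TLR except TLR3, which uses TICAM1. Monocytes and progenitors among BMNC can give rise to macrophages, the cells that clear microbes and debris from the joint.

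Levels are given as GeTMM, which divides reads by gene length and then scales the libraries to each other, so that they can be set side by side between genes. Differences are log2 fold changes of GeTMM + 1 with their standard errors (SE) from limma, which understate the change of genes at low levels. A gene was called at a false discovery rate (FDR) under 0.05, adjusted over the 14570 genes tested. TLR4 was at too low a level to be tested, which left 10 tested entries for 9 genes. TLR3 and CD14 passed the filter (0.5 GeTMM in at least 7 libraries) through cultured cells, since at 0 hours this level was reached in 3 of 8 libraries for TLR3 and in 1 and 0 libraries for the CD14 entries. Their comparisons with 0 hours, and their place in counts of such comparisons, are given as a description. The entry ENSECAG00000031960 reached it in 21 of 30 ISF libraries but in 6 of 30 SF libraries, so it passed only through the fluid in which it was higher, and its tests and its place in the counts are given as a description. RNA of the whole well was sequenced, so a lower share of cells of a type and less RNA per cell cannot be told apart.

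Some libraries stood apart. At 96 hours the ISF cultures of Dealings and of Dreamer went against their labels: over all tested genes, their deviations from the group mean correlated with the other libraries of the other of these horses (0.447 and 0.514) and not with those of their own (-0.061 and -0.096). One further library of 68, that of Dealings in ISF at 10 days, was marginally closer to another horse (0.201 against 0.192). Counts of horses at 96 hours take the labels as given. The SF library of Moon at 6 days had a summed GeTMM of 2321940, against 817796 to 1458342 in all others.

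At 48 hours, 0 of the 10 tested entries differed between ISF and SF by limma, where 1.68% of all genes did, and 2 had an unadjusted p under 0.05. By 96 hours, 4 entries were called, 3 higher in ISF (TLR8 and both CD14 entries) and 1 lower (TLR6), beside 10.5% of all genes. At 6 days, 7 were called, with TLR2, TLR3, TLR8, both CD14 entries and MYD88 higher and TLR7 lower, beside 30.2% of all genes. At 10 days, 5 were called, with TLR2 and both CD14 entries higher and TLR7 and TLR9 lower, beside 20.8% of all genes. With a term for the horse, which is a paired analysis, the counts at the 4 times were 0, 5, 8 and 6, beside 4.53%, 16.7%, 36.1% and 27.1% of all genes in the same fit. Without the CD14 entry that passed the filter through ISF, the counts of the first fit were 0, 3, 6 and 4 of 9. The median log2 fold change over the 10 entries was 0.24, 0.44, 0.94 and -0.10 in order of time (0.21, 0.44, 0.82 and -0.22 without that entry), against -0.02, 0.00, 0.00 and -0.02 over all genes.

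Within horses, 2 entries had the same direction in every horse at 48 hours, as 12.4% of all genes did. This number was 4 at 96 hours (15.8% of all genes), 2 at 6 days (14.9%) and 3 at 10 days (20.1%). The ISF and SF libraries did not overlap for 0 entries at 48 hours (1.06% of all genes), for MYD88 alone at 96 hours (2.11%), for TLR8 alone at 6 days (3.34%) and for 0 entries at 10 days (4.96%). The plot of the fold changes shows TLR7 and TLR9 at their lowest at 10 days.

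**Figure D1:**
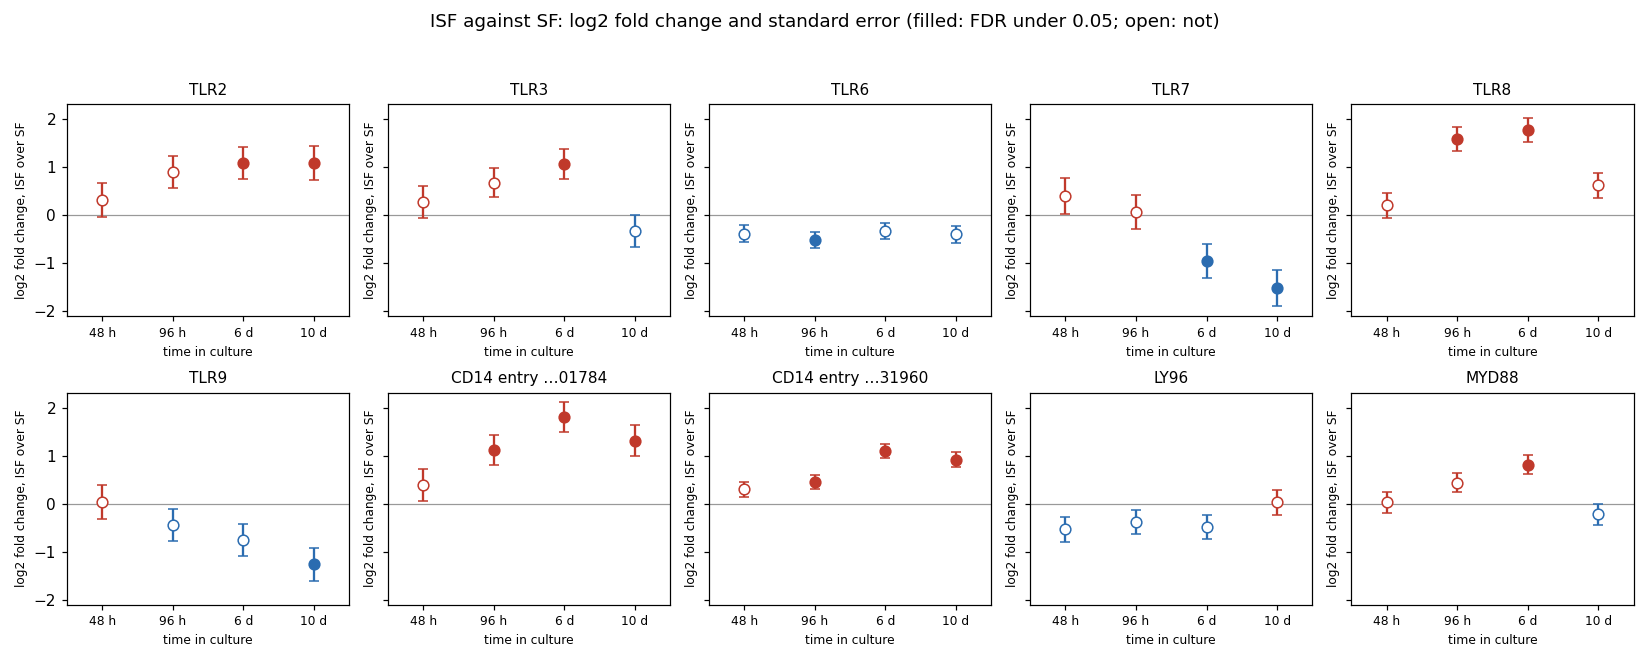
Log2 fold change of ISF over SF (vertical axis) with its SE at each time in culture (horizontal axis) for the 10 tested entries; filled points had an FDR under 0.05. TLR8 and both CD14 entries lie highest at 6 days, with 1.77, 1.81 and 1.10, and TLR7 and TLR9 lie lowest at 10 days, with -1.52 and -1.26.

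TLR4, the LPS receptor itself, was listed at 0 in 66 of 68 libraries. The exceptions were the ISF libraries of Dealings and RimRun at 96 hours, each with 0.0154 GeTMM, which is 1 read. A library without a read allows up to 3 reads by counting error alone. None of 13 housekeeping entries was at 0 in any library (lowest 7.63 GeTMM), so the values of TLR4 are those of its own entry (ENSECAG00000010339). In the RefSeq annotation of another horse assembly (TB-T2T), TLR4 overlaps a long noncoding RNA gene, and whether reads were lost to such an overlap was not tested. Neither a level nor a fold change of TLR4 is given for this reason.

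LY96, the LPS-binding partner of TLR4, was among the members with the most RNA, and its highest levels were at 48 hours. At 0 hours its libraries lay between 50.2 and 171 GeTMM with a median of 67.9. SF libraries at 48 hours ran from 82.0 to 248 (median 181), and ISF libraries from 84.1 to 212 (median 117). Both fluids thus lay above most uncultured libraries, but each overlapped them. LY96 rose from 0 to 48 hours by 1.18 (SE 0.26, FDR 0.000103) in SF and by 0.65 (SE 0.26, FDR 0.0266) in ISF, and it fell to 96 hours by 0.84 (SE 0.26, FDR 0.00906) in SF and by 0.69 (SE 0.26, FDR 0.0461) in ISF. At 10 days the median was 56.4 in SF (43.2 to 68.3) and 58.3 in ISF (37.7 to 83.5), and the fluids overlapped throughout.

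The difference of LY96 between the fluids was not called at any time. At 48 and 96 hours it was -0.53 (SE 0.26, FDR 0.357) and -0.38 (SE 0.25, FDR 0.371), followed by -0.49 (SE 0.25, FDR 0.13) at 6 days (-0.22, FDR 0.464, without Moon's SF library of that time) and, last, 0.03 (SE 0.26, FDR 0.959). LY96 was lower in ISF in 5 of 7 horses at 48 hours and in 7 of 8 at both 96 hours and 6 days. From 0 hours to 10 days it was lower by 0.48 (SE 0.26, FDR 0.0915) in SF (FDR 0.04 with a term for the horse, and 0.0466 without Moon's SF library of 6 days), and by 0.45 (SE 0.26, FDR 0.108) in ISF. The value in SF from 6 to 10 days was -0.71 (SE 0.26, FDR 0.0848), with an FDR of 0.0234 with that term, and -0.44 (FDR 0.323) without that library. The SF library of Moon at 6 days held 335 GeTMM of LY96, against 46.1 to 103 in the other SF libraries of that time. In ISF, the rise to 48 hours was not called without Lurie or without RimRun (FDR 0.0831 and 0.144), nor the fall to 96 hours without any of Catnip, Dealings, Dreamer, Flash, Lurie, Ollie or RimRun (FDR 0.0539 to 0.142), nor with the ISF cultures of Dealings and Dreamer from 96 hours left out (FDR 0.152). In order of the mean, only SF at 48 hours (181) stood above its neighbour, ISF at 48 hours (125), by more than the larger SD.

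CD14, the co-receptor that delivers LPS and a classical surface marker of monocytes, was low on both of its entries in uncultured BMNC. It was higher in ISF than in SF from 96 hours on. The entry ENSECAG00000001784 had 0.118 to 1.27 GeTMM at 0 hours (median 0.351) and the entry ENSECAG00000031960 had 0 to 0.236 (median 0.145), with at most 23 and 5 reads in a library. These levels rest on few reads, and the entry ENSECAG00000031960 stayed lower in most libraries (the other was higher in 59 of 68). Over all libraries the entries held 3991 and 1223 reads and correlated with r = 0.879, on the log2 scale over 68 libraries that share horses and depth. RefSeq places a pseudogene next to CD14 in the TB-T2T assembly, and whether the entries share or lose reads was not tested. The levels are therefore those of these entries, and they may understate CD14.

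In the entry ENSECAG00000001784, SF libraries held 0.323 to 1.31 GeTMM at 96 hours (median 0.447) and ISF libraries 0.943 to 6.40 (median 2.04). At 6 days the range was 0.206 to 2.34 in SF (median 0.869) and 1.40 to 24.6 in ISF (median 5.48). At 10 days it was 1.02 to 4.89 in SF (median 1.50) and 2.97 to 11.0 in ISF (median 4.35). The fluids overlapped at each of these times through a few libraries: Ollie was the highest SF library at 96 hours, Moon at 6 days and RimRun at 10 days. This CD14 entry was higher in ISF by 1.12 (SE 0.31, FDR 0.011) at 96 hours, by 1.81 (SE 0.31, FDR 5.8e-06) at 6 days and by 1.32 (SE 0.33, FDR 0.00228) at 10 days. It was higher in ISF in 7 of 7, 8 of 8, 7 of 8 and 6 of 7 horses from 48 hours to 10 days, although the difference at 48 hours was not called (0.40, SE 0.33, FDR 0.645).

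In the entry ENSECAG00000031960, which passed the filter only through ISF, the values were smaller and were called at the same 3 times: 0.45 (SE 0.15, FDR 0.0347) at 96 hours, 1.10 (SE 0.15, FDR 2.61e-08) at 6 days and 0.92 (SE 0.16, FDR 1.04e-05) at 10 days. Values of GeTMM + 1 understate change at such low levels, so a smaller change is not shown. At 10 days the means were 0.572 GeTMM in SF and 2.04 in ISF, beside 1.92 and 6.63 in ENSECAG00000001784. At 6 days the SF libraries of ENSECAG00000031960 held 0.128 to 0.680 GeTMM (median 0.260) and its ISF libraries 0.457 to 3.89 (median 1.83). With both CD14 entries added together, which was tried after seeing the data, the differences were 1.18, 1.93 and 1.43 (FDR 0.00406, 4.83e-07 and 0.000437). The calls of CD14 at 96 hours were lost with those ISF cultures of Dealings and Dreamer left out (FDR 0.0556 and 0.162), described above. They were also lost without the horses Catnip or Dealings for the entry ENSECAG00000001784 (FDR 0.0631 and 0.0549), and without any of Catnip, Dealings, Dreamer, Flash, Lurie or Ollie for the other (FDR 0.0526 to 0.147).

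Over time, CD14 rose in both fluids. From 0 hours to 10 days, the entry ENSECAG00000001784 rose by 2.33 (SE 0.32, FDR 2.25e-09) in ISF and by 1.01 (SE 0.32, FDR 0.00431) in SF, and ENSECAG00000031960 by 1.39 (SE 0.15, FDR 1.67e-12) and 0.48 (SE 0.15, FDR 0.00453). Both entries lay above all uncultured libraries in ISF at 10 days, as 48.4% of all genes lay apart between these groups. The step from 96 hours to 6 days in ISF was called for both (1.01, FDR 0.0337, and 0.75, FDR 0.000837), and the step from 48 to 96 hours in the entry ENSECAG00000001784 was 0.83 (SE 0.32, FDR 0.0578, with a term for the horse 0.0433, without Moon's SF library of 6 days 0.0431). In ENSECAG00000001784, the step from 96 hours to 6 days was not called without any of Catnip, Dealings, Dreamer, Ollie or RimRun (FDR 0.0622 to 0.235). Mean levels were highest in ISF at 6 days and 10 days, 8.30 and 6.63 GeTMM for the entry ENSECAG00000001784, which did not differ beyond their spread. In order of the mean, the step from 6.63 at 10 days to 2.80 in ISF at 96 hours was 3.83, just beyond the larger SD of 3.735. The SD at 6 days was 8.04, so the level of 6 days was not apart from that of 96 hours by its spread.

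Macrophage markers, whose levels rise with the share of macrophages or with their RNA, rose from 0 hours as CD14 did, but single markers differed between the fluids in both directions. From 0 hours to 10 days 7 of 7 were called higher in each fluid, beside 74.5% of all genes called in either direction in ISF and 69.6% in SF. At 96 hours SPP1 and MSR1 were called higher in ISF and GPNMB lower (3 of 7, beside 10.5% of all genes). At 6 days MSR1 was higher and GPNMB lower (2 of 7, close to the 30.2% of all genes). The summed level of 7 macrophage markers (CD68, CD163, MRC1, GPNMB, SPP1, TREM2 and MSR1) was 184 to 308 GeTMM at 0 hours. At 48 hours, when CD14 was not called, it was 7548 to 13820 in SF and 14800 to 27360 in ISF, without overlap. At 6 days it was 20630 to 99900 in SF (median 37450) and 14660 to 100400 in ISF (median 58760), and at 10 days 29900 to 75170 (median 45560) and 47200 to 82490 (median 64170). None of these markers was at 0 in all libraries of a group, their sums overlapped between the fluids from 96 hours on, and their part in the difference of CD14 was not tested.

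**Figure D2:**
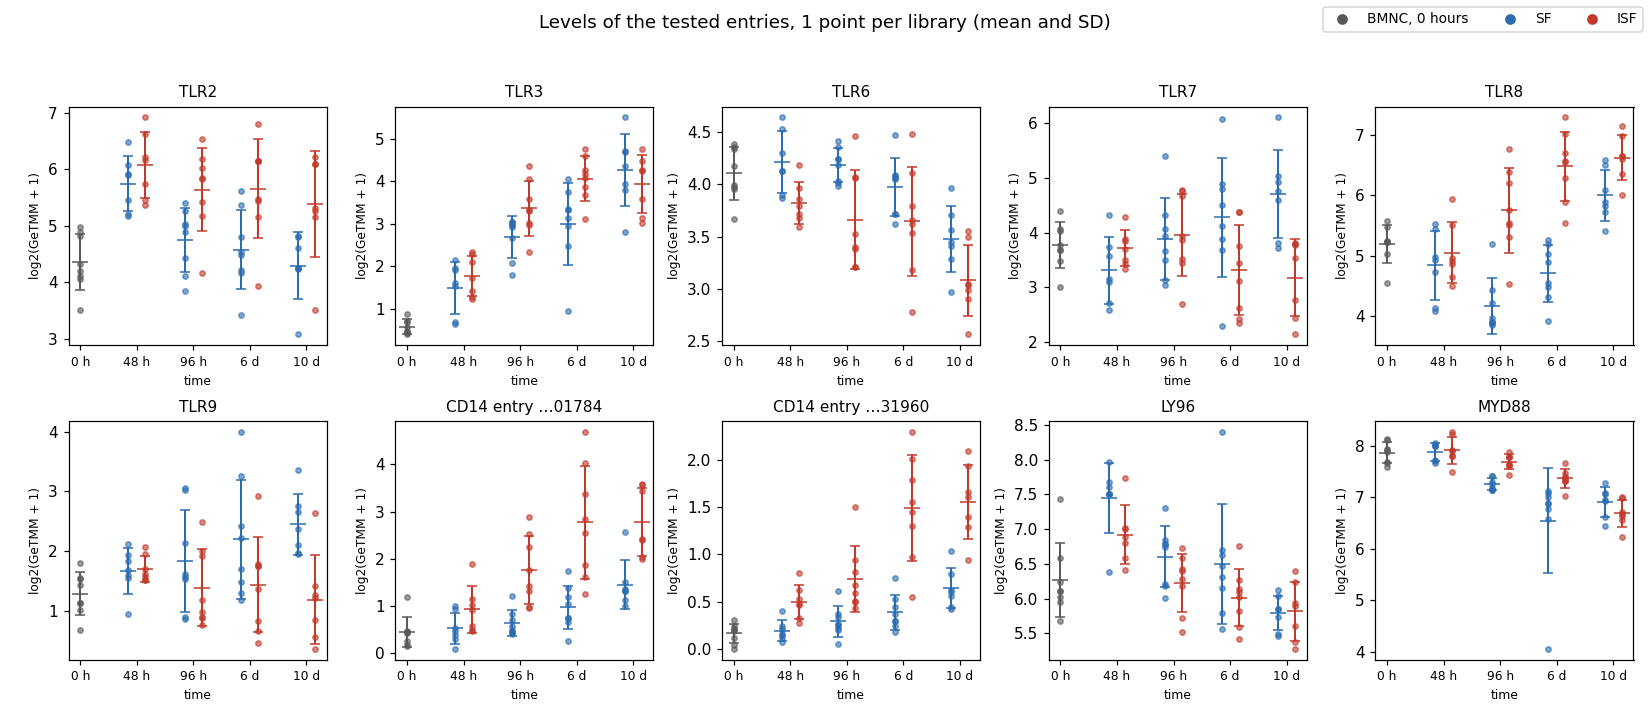
Levels as log2(GeTMM + 1) (vertical axis) by time (horizontal axis) for the 10 tested entries, with 1 point per library and bars for the mean and SD of a group: grey, BMNC at 0 hours; blue, SF; red, ISF. TLR3 rises in both fluids, TLR8 of the 2 fluids does not overlap at 6 days, and a single SF library at 6 days lies far from the others for LY96 (335 GeTMM) and MYD88 (15.6 GeTMM).

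TLR2, the surface receptor for bacterial lipopeptides, rose early in both fluids and then fell back in SF. Uncultured libraries held 10.4 to 30.4 GeTMM (median 18.1). At 48 hours SF libraries held 35.2 to 88.6 (median 58.9) and ISF libraries 40.1 to 120 (median 70.7). All cultured libraries of that time lay above all uncultured ones, whereas the fluids overlapped. The rise to 48 hours was 1.39 (SE 0.34, FDR 0.000644) in SF and 1.71 (SE 0.34, FDR 2.61e-05) in ISF. In SF, TLR2 fell by 1.00 (SE 0.34, FDR 0.0227) from 48 to 96 hours, and in ISF the value was -0.43 (SE 0.34, FDR 0.435).

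At 6 days TLR2 ranged from 9.72 to 48.2 GeTMM in SF (median 21.7) and from 14.3 to 111 in ISF (median 56.5). At 10 days these ranges were 7.47 to 27.3 (median 18.0) and 10.4 to 73.5 (median 38.7). The ISF libraries lay mostly above the SF libraries, and Ollie gave the lowest library of both fluids at both times. TLR2 was higher in ISF by 1.08 (SE 0.33, FDR 0.00953) at 6 days, in 7 of 8 horses, and by 1.09 (SE 0.36, FDR 0.0213) at 10 days, in 7 of 7. At 96 hours it was higher in all 8 horses, by 0.90 (SE 0.33, FDR 0.0718), which passed with a term for the horse (FDR 0.000551), and also without Moon's SF library of 6 days (FDR 0.0493). From 0 hours to 10 days TLR2 rose by 1.02 (SE 0.34, FDR 0.00655) in ISF, whereas the value in SF was -0.07 (SE 0.34, FDR 0.868). In order of the mean, the 5 highest groups were the 4 ISF groups and SF at 48 hours, from 71.2 to 47.1 GeTMM, with no neighbours apart by more than their spread. The call at 10 days was lost without Catnip, Dreamer, Lurie or RimRun (FDR 0.0501 to 0.0918), and the fall in SF without Catnip, Dreamer or RimRun (FDR 0.0517 to 0.0645).

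TLR6, a partner of TLR2 in lipopeptide recognition, was lower at 10 days than at 0 hours in both fluids. Uncultured libraries held 11.8 to 19.9 GeTMM (median 16.0). At 10 days SF libraries held 6.83 to 14.6 (median 9.95) and ISF libraries 4.94 to 10.7 (median 7.20). The ISF libraries of 10 days all lay below the uncultured ones, and the fluids overlapped. TLR6 fell from 0 hours to 10 days by 1.02 (SE 0.17, FDR 4.68e-07) in ISF and by 0.62 (SE 0.17, FDR 0.00124) in SF, and from 6 to 10 days by 0.56 (SE 0.17, FDR 0.0257) in ISF, a call lost without Catnip, Dealings, Flash or Ollie (FDR 0.0557 to 0.166). The value for that interval in SF was -0.50 (SE 0.17, FDR 0.077).

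Between the fluids, TLR6 was called at 96 hours alone, where it was lower in ISF by 0.52 (SE 0.17, FDR 0.0345) and lower in 6 of 8 horses. SF libraries at that time held 14.8 to 20.3 GeTMM (median 17.5) and ISF libraries 8.23 to 21.0 (median 10.1), with the ISF libraries of Catnip and Dreamer within the SF range and that of Flash above it. This call was lost without any of Dealings, Dreamer, Lurie, Moon, Ollie or RimRun (FDR 0.0516 to 0.171). The values at 48 hours, 6 days and 10 days were -0.39 (SE 0.18, FDR 0.303), -0.33 (SE 0.17, FDR 0.132) and -0.40 (SE 0.18, FDR 0.11), all in the same direction. Only the step in mean level from SF to ISF at 10 days, 10.4 to 7.70 GeTMM, was larger than the SD among neighbours in order. TLR6 overlaps TLR1 and FAM114A1 in the RefSeq annotation of TB-T2T, and the strand setting of the counting is not given in the sources used here, so reads of these genes may not be told apart. The value of TLR1 was between -0.23 and 0.03 (FDR 0.771 to 0.958) at the 4 times.

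TLR3, the endosomal receptor for double-stranded RNA, had the largest rise of all members tested over the culture. At 0 hours it had 0.319 to 0.843 GeTMM (median 0.438), from 15 to 41 reads. Levels in SF were 0.550 to 3.44 at 48 hours (median 2.02) and 6.01 to 44.6 at 10 days (median 19.6). In ISF they were 1.33 to 4.02 at 48 hours (median 2.31) and 7.16 to 26.3 at 10 days (median 18.0). Every library of 10 days lay above every uncultured library, in both fluids. TLR3 rose from 0 hours to 10 days by 3.69 (SE 0.32, FDR 1e-15) in SF and by 3.36 (SE 0.32, FDR 2.37e-14) in ISF.

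The course of TLR3 differed in its steps. In ISF the rise was called from 0 to 48 hours (1.19, SE 0.32, FDR 0.00145) and from 48 to 96 hours (1.60, SE 0.32, FDR 0.000174), and the later steps were 0.70 (SE 0.31, FDR 0.184) and -0.14 (SE 0.32, FDR 0.887). In SF it was called for the same intervals (0.92, SE 0.32, FDR 0.0159, and 1.19, SE 0.32, FDR 0.0035) and again from 6 to 10 days (1.27, SE 0.32, FDR 0.0148). At 6 days the SF libraries held 0.921 to 15.6 GeTMM (median 8.41) and the ISF libraries 7.70 to 26.2 (median 16.4). Each horse had more TLR3 in ISF at that time, and the difference was 1.07 (SE 0.31, FDR 0.00641). The lowest SF library of 6 days was that of Moon, and without this horse the difference was 0.67 and not called (FDR 0.0669), nor was the later step in SF without that library (0.97, FDR 0.0702), without Moon altogether (FDR 0.0922) or without Ollie (FDR 0.0614). The rise in SF to 48 hours was not called without Lurie or Ollie (FDR 0.058 and 0.0593). At 10 days the difference was -0.33 (SE 0.33, FDR 0.536), with 3 of 7 horses higher in ISF. Whether the difference changed from 6 to 10 days was not called (-1.40, SE 0.46, FDR 0.144), except with a term for the horse (FDR 0.0443).

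TLR8, the endosomal receptor for single-stranded RNA that is prominent in monocytes, did not overlap between the fluids at 6 days. Uncultured libraries held 22.5 to 46.7 GeTMM (median 36.6). In SF the level was 16.1 to 45.3 at 48 hours (median 29.6), 13.4 to 35.7 at 96 hours (median 14.3), 14.2 to 37.4 at 6 days (median 25.7) and 41.5 to 94.6 at 10 days (median 58.5). In ISF it was 21.6 to 60.6 (median 29.1), 22.2 to 108 (median 49.4), 45.5 to 155 (median 93.2) and 63.1 to 140 (median 99.4) at the same times. The lowest ISF library of 6 days (Flash) lay above the highest SF library (Lurie), while at 96 hours only the SF library of Lurie reached into the ISF range, the next SF library being at 20.6. In order of the mean, the lowest group, SF at 96 hours (18.0), was apart from SF at 6 days (26.3) by more than the larger SD, and no other neighbours were.

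TLR8 was higher in ISF by 1.58 (SE 0.25, FDR 5.29e-06) at 96 hours and by 1.77 (SE 0.25, FDR 7.03e-08) at 6 days, a 2.99-fold and a 3.41-fold difference, with all 8 horses in this direction at both times. At 10 days the value was 0.62 (SE 0.26, FDR 0.0836) with 6 of 7 horses higher in ISF, and it passed with a term for the horse (FDR 0.00801). Between 48 and 96 hours TLR8 rose in ISF by 0.70 (SE 0.25, FDR 0.0415) and fell in SF by 0.67 (SE 0.25, FDR 0.04). The change of the fluid difference over that interval was not tested. SF followed by a rise of 1.29 (SE 0.25, FDR 0.00118) from 6 to 10 days. The step from 96 hours to 6 days in ISF (0.73, SE 0.25) had an FDR of 0.0593, of 0.00264 with a term for the horse and of 0.0363 without Moon's SF library of 6 days. Over the whole culture TLR8 rose by 1.43 (SE 0.25, FDR 1.13e-06) in ISF and by 0.81 (SE 0.25, FDR 0.004) in SF. The narrowing of the fluid difference from 6 to 10 days was -1.15 (SE 0.36, FDR 0.126, and FDR 0.0141 with a term for the horse). The steps from 48 to 96 hours depended on single horses: the rise in ISF was lost without Catnip, Dealings, Dreamer, Ollie or RimRun (FDR 0.0608 to 0.153) and with the ISF cultures of Dealings and Dreamer from 96 hours left out (FDR 0.106), the fall in SF without Catnip, Dreamer, Moon, Ollie or RimRun (FDR 0.0555 to 0.165).

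TLR7, the other receptor for single-stranded RNA and the neighbour of TLR8 in the RefSeq annotation, had fluid differences in the other direction at 6 and 10 days. At 0 hours its libraries held 7.01 to 20.0 GeTMM (median 12.3). In SF they held 5.03 to 18.9 at 48 hours (median 7.87), 3.90 to 65.9 at 6 days (median 19.0) and 12.2 to 67.6 at 10 days (median 25.9). In ISF they held 9.16 to 18.4 (median 12.1), 4.09 to 19.8 (median 8.80) and 3.45 to 13.1 (median 10.6). SF libraries thus ran higher late in culture, led by Lurie, and the fluids overlapped at each time, at 10 days through the SF libraries of Ollie and RimRun.

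TLR7 was lower in ISF by 0.96 (SE 0.36, FDR 0.0341) at 6 days, in 7 of 8 horses, and by 1.52 (SE 0.38, FDR 0.0025) at 10 days, in 6 of 7. The values at 48 and 96 hours were 0.40 (SE 0.38, FDR 0.704) and 0.07 (SE 0.36, FDR 0.934). The change of the fluid difference from 48 hours to 10 days was itself called, at -1.92 (SE 0.54, FDR 0.0344), which made TLR7 the 1 member of 10 called in this comparison, beside 2.99% of all genes. Over the 10 days TLR7 rose in SF by 0.94 (SE 0.37, FDR 0.022), and the value in ISF was -0.59 (SE 0.37, FDR 0.148). The call at 10 days held in each of the 18 alternative fits, with FDR values of 0.000313 to 0.0263. By contrast, the call at 6 days was lost without Catnip, Dealings or Dreamer (FDR 0.103 to 0.16), the change of the difference without any horse but Lurie and Moon (FDR 0.0537 to 0.128), and the rise in SF without Dreamer or Lurie (FDR 0.0513 and 0.0787).

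TLR9, the endosomal receptor for unmethylated CpG DNA, had lower levels than TLR7 and, like it, was lower in ISF than in SF at 10 days. Uncultured libraries held 0.617 to 2.49 GeTMM (median 1.46). At 10 days SF libraries held 2.86 to 9.25 (median 4.20) and ISF libraries 0.295 to 5.27 (median 1.32), from 17 to 289 reads in ISF. Every SF library of 10 days lay above every uncultured one, and the fluids overlapped only through the ISF library of Moon, since the other ISF libraries reached no higher than 1.69. TLR9 was lower in ISF at 10 days by 1.26 (SE 0.35, FDR 0.00634), in 7 of 7 horses. At 6 days the value was -0.75 (SE 0.33, FDR 0.0724), lower in 7 of 8 horses, which passed with a term for the horse (FDR 0.011), and it was -0.50 (FDR 0.222) without Moon's SF library of 6 days. It was also called at 6 days without Lurie (FDR 0.0491) or without Moon (FDR 0.0326). Values at 48 and 96 hours were 0.04 (SE 0.35, FDR 0.987) and -0.44 (SE 0.33, FDR 0.445).

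Over the 10 days TLR9 rose in SF by 1.16 (SE 0.34, FDR 0.002) and had a value of -0.10 (SE 0.34, FDR 0.81) in ISF. The value in ISF from 0 to 48 hours, 0.42 (SE 0.34, FDR 0.305), was 0.58 with a term for the horse (FDR 0.044). For the change of the fluid difference from 48 hours to 10 days the value was -1.30 (SE 0.49, FDR 0.137, with that term 0.0193, and without Moon 0.0209), where the term called 2 members and 7.52% of all genes. Neither TLR7 nor TLR9 had neighbouring groups, in order of the mean, that were apart by more than the larger SD.

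**Figure D3:**
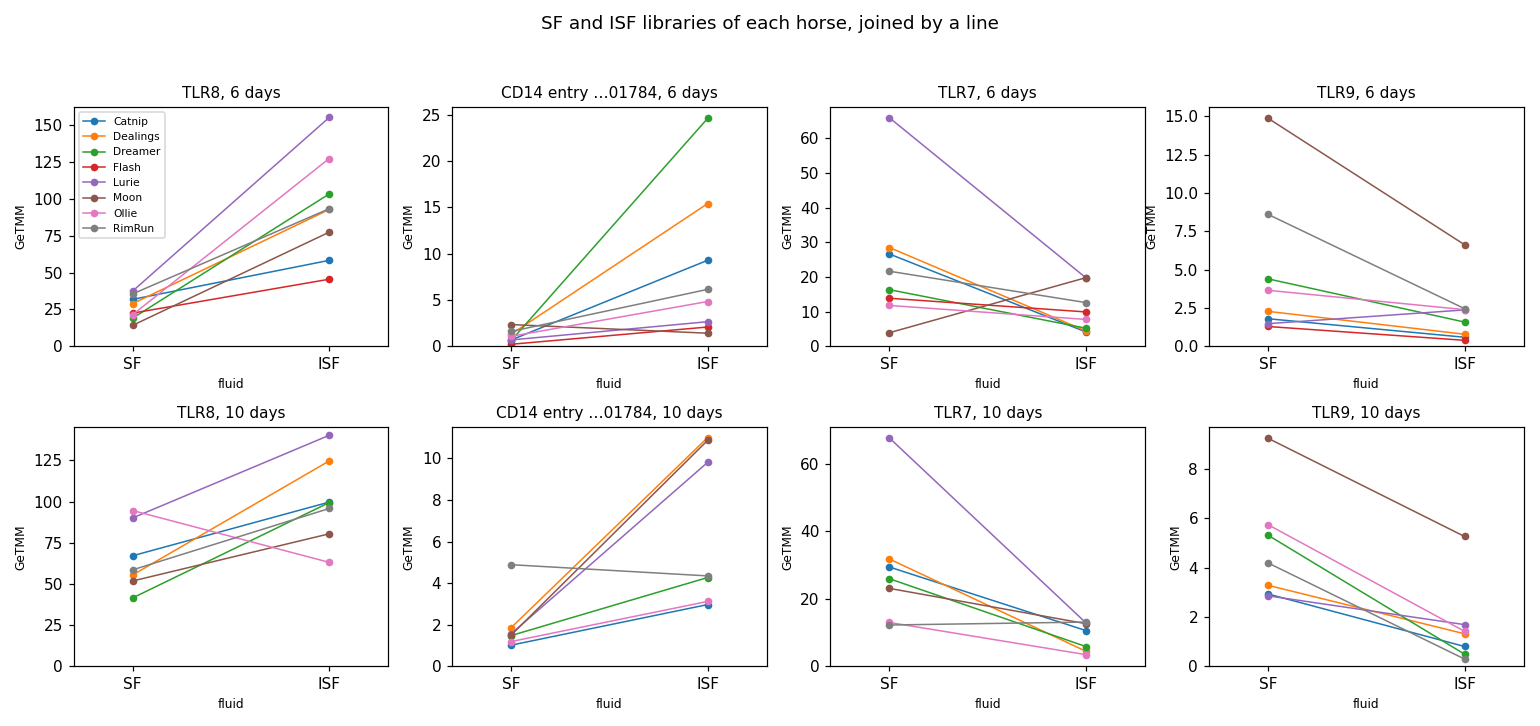
GeTMM (vertical axis) of TLR8, the CD14 entry ENSECAG00000001784, TLR7 and TLR9 in the SF and ISF library of each horse, joined by a line, at 6 days (upper row) and 10 days (lower row). TLR8 rises from SF to ISF in 8 of 8 horses at 6 days, and TLR9 falls in 7 of 7 horses at 10 days.

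Markers of T cells and of stromal cells were lower in ISF at 10 days along with TLR7 and TLR9. By the same test 5 of 5 T cell, 2 of 2 plasmacytoid dendritic cell and 5 of 5 stromal entries were called lower. Of all genes, 20.8% were called in either direction. Plasmacytoid dendritic cells are known for both receptors. Of 5 plasmacytoid dendritic cell markers listed only TCF4 and BCL11A were in the table, and their sum at 10 days was 4.18 to 13.0 GeTMM in SF (median 9.32) and 1.39 to 5.12 in ISF (median 3.76). T cell markers (CD3D, CD3E, CD3G, CD2 and LCK) summed to 23.5 to 199 in SF (median 103) and 4.33 to 14.8 in ISF (median 7.61), without overlap. None of these markers was at 0 in all libraries of a group. The SF library of Lurie at 10 days, which had the most TLR7, also had the highest sum of 5 fibroblast or stromal markers (COL1A1, COL1A2, COL3A1, DCN and LUM), 4038 GeTMM, against 0.406 to 517 in the other SF libraries of that time. In ISF the stromal sum was 0.123 to 49.25 GeTMM at 10 days, so the fluids overlapped. Moon alone had the higher sum in ISF, 49.25 against 0.406 in SF. The difference of TLR7 at 10 days was called without Lurie, and that of TLR9 as well. In SF from 0 hours to 10 days, TLR7 and TLR9 rose (0.94 and 1.16). Over that time the median T cell sum went from 199.8 to 102.8 GeTMM and the plasmacytoid dendritic cell sum from 15.27 to 9.32. The median stromal sum went up, from 3.44 to 27.6. For each sum the libraries of the 2 groups overlapped. The part of these cells in the differences was not tested.

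**Figure D4:**
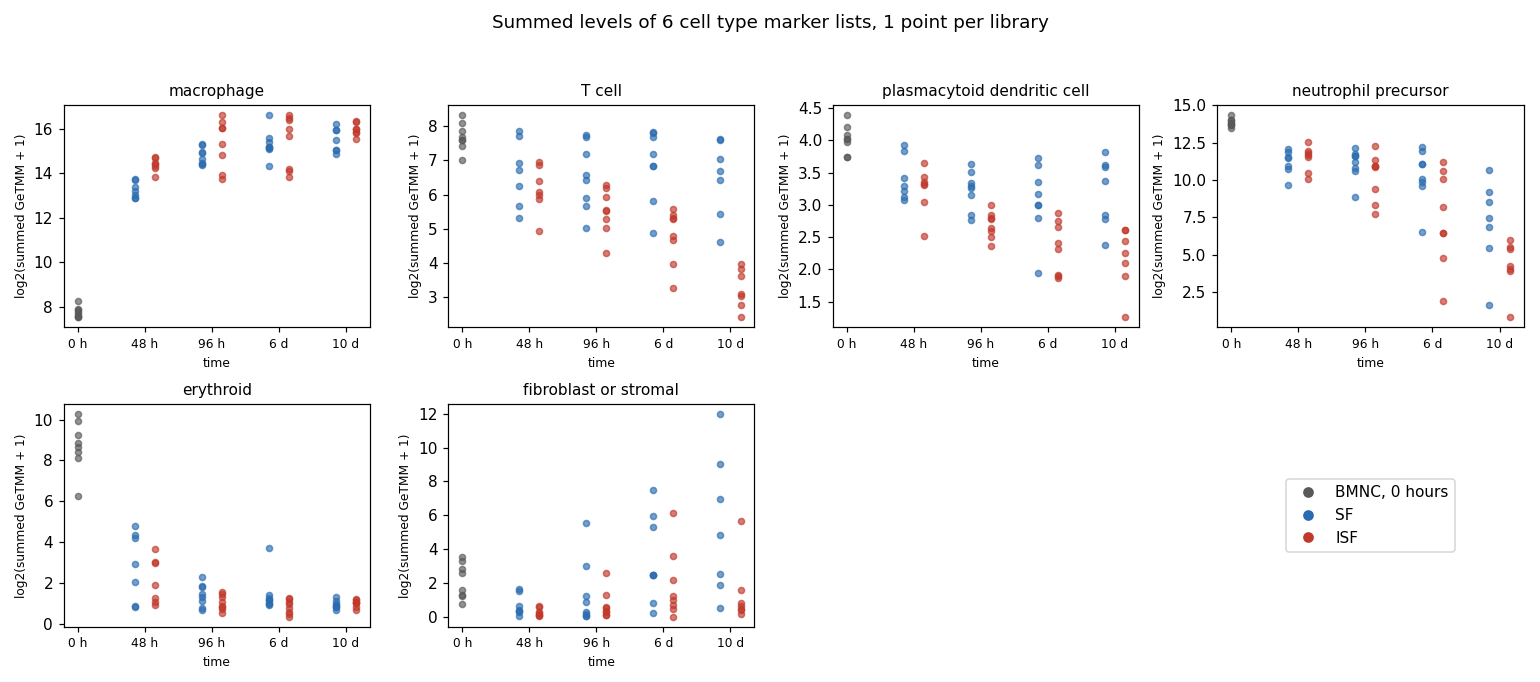
Summed level of 6 marker lists as log2(summed GeTMM + 1) (vertical axis) by time (horizontal axis), 1 point per library: grey, BMNC at 0 hours; blue, SF; red, ISF. T cell markers are lower in ISF than in SF at 10 days, with medians of 7.61 against 103 GeTMM.

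MYD88, the shared adaptor, had the highest level of the members at 0 hours and was lower in both fluids by 10 days. Uncultured libraries held 192 to 278 GeTMM (median 236). In SF the level was 200 to 263 at 48 hours (median 253), 140 to 169 at 96 hours (median 148) and 85.5 to 154 at 10 days (median 122). In ISF it was 178 to 305 (median 237), 172 to 234 (median 209) and 74.1 to 126 (median 102) at these times. At 96 hours every ISF library lay above every SF library, and at 10 days every library of both fluids lay below every uncultured one.

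From 48 to 96 hours MYD88 fell in SF by 0.63 (SE 0.21, FDR 0.0164), while the value in ISF was -0.22 (SE 0.21, FDR 0.516). In ISF the fall was called from 6 to 10 days (-0.68, SE 0.21, FDR 0.022). From 0 hours to 10 days it fell by 1.18 (SE 0.21, FDR 7.61e-07) in ISF and by 0.96 (SE 0.21, FDR 3.96e-05) in SF. MYD88 was higher in ISF at 6 days by 0.82 (SE 0.20, FDR 0.00106), in 7 of 8 horses, with SF libraries of 15.6 to 139 GeTMM (median 116) and ISF libraries of 128 to 201 (median 165). Without Moon's SF library of 6 days this difference was 0.46 (FDR 0.000524). At 96 hours, despite the separation of the libraries, the value of 0.44 (SE 0.20, FDR 0.148) was not called, and at 10 days it was -0.22 (SE 0.21, FDR 0.523) with 6 of 7 horses lower in ISF.

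That library of Moon held 15.6 GeTMM, against 94.6 to 139 GeTMM of MYD88 in the other SF libraries. Without it, the difference at 96 hours was called (FDR 0.00168) with the same fold change of 0.44, the fall in SF from 96 hours to 6 days changed from -0.70 (FDR 0.0395) to -0.35 (FDR 0.088), and the change of the fluid difference from 6 to 10 days changed from -1.04 (SE 0.29, FDR 0.087, with a term for the horse 0.0443) to -0.68 (FDR 0.0183). The fall in ISF from 6 to 10 days was lost without any of Catnip, Dealings, Flash, Lurie, Ollie or RimRun (FDR 0.0505 to 0.0904), that in SF from 48 to 96 hours without Dreamer or Lurie (FDR 0.0633 and 0.0629), and that in SF from 96 hours to 6 days without any of Dreamer, Flash, Lurie, Moon, Ollie or RimRun (FDR 0.0637 to 0.114). Neutrophil precursor markers were lower late in culture as well. The sum of the 6 found in the table was 11360 to 21000 GeTMM at 0 hours. At 10 days it was 2.15 to 1648 in SF and 0.759 to 63.7 in ISF. The sum was lower by 48 hours already, with 818.7 to 4329 in SF and 1087 to 6083 in ISF. From 0 to 48 hours MYD88 was not called (0.01, FDR 0.976, in SF and 0.05, FDR 0.873, in ISF). Nor was TLR6 (0.11, FDR 0.652, and -0.28, FDR 0.174). The part of these markers in the fall of MYD88 and TLR6 was not tested.

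Counted by interval, the members called from 0 to 48 hours were TLR2, TLR3 and LY96 in both fluids, all higher, that is 3 of 10 in ISF (52.7% of all genes) and 3 of 10 in SF (45.4%). From 48 to 96 hours there were 3 in ISF (19.0% of all genes) and 5 in SF (27.3%). From 96 hours to 6 days there were 2 in ISF (6.38%), both of them CD14, and MYD88 alone in SF (2.05%). From 6 to 10 days there were 2 in ISF (10.5%), both lower, and 2 in SF (4.78%), both higher. From 0 hours to 10 days, 7 members were called in ISF (74.5% of all genes), 5 higher and 2 lower, and 8 in SF (69.6%), 6 higher and 2 lower. The groups did not overlap for 6 of 10 entries in ISF (48.4% of all genes) and for 4 in SF (41.1%). TLR3 and both CD14 entries, which passed the filter through cultured cells, are among those called higher at 10 days. They are also among the 6 in ISF, and TLR3 and ENSECAG00000031960 are among the 4 in SF. These counts are therefore a description, in which CD14 stands on 2 entries. The ISF and SF comparisons with 0 hours share the uncultured libraries. For the change of the fluid difference from 6 to 10 days, 0 members were called by limma, where 0.226% of all genes were, and 3 had an unadjusted p under 0.05 (TLR3, TLR8 and MYD88). With a term for the horse these 3 were called, beside 1.85% of all genes.

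The rest of the TLR pathway moved in both directions. Of 50 tested entries of a list of other receptors, transport proteins, adaptors, kinases, transcription factors and inhibitors, 0 were called between the fluids at 48 hours, 6 at 96 hours (3 higher and 3 lower in ISF) and 16 at 6 days (11 were higher and 5 lower). By 10 days there were 9, of which 3 were higher and 6 lower. These are 0%, 12.0%, 32.0% and 18.0% of the list, close to the shares of all genes. The median log2 fold changes of the list were -0.12, 0.02, 0.18 and -0.06. IRAK2, a kinase downstream of MYD88, had the highest fold change among the genes of the list that were called at 96 hours (0.74, SE 0.16, FDR 0.000911) and at 6 days (1.20, SE 0.16, FDR 2.73e-08), where its mean was 15.2 ± 4.28 GeTMM (SD, n = 8) in ISF and 6.00 ± 1.45 (SD, n = 8) in SF. SIGIRR, an inhibitor of TLR signalling, had the lowest among those called at both times (-0.77, SE 0.20, FDR 0.00679, and -1.29, SE 0.20, FDR 8.18e-07). At 10 days the highest called was HSP90B1, the chaperone that folds TLRs (1.17, SE 0.16, FDR 1.47e-07), and the lowest called LY86, the partner of CD180 (-1.14, SE 0.41, FDR 0.0388).

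Among the transport proteins of the endosomal receptors, 3 of 6 were called at 6 days, all higher in ISF (SLC15A4, HSP90B1 and UNC93B1), beside 30.2% of all genes called in either direction. At the same time 2 of 5 adaptors were higher, PIK3AP1 and TICAM1, the adaptor of TLR3 (0.64, SE 0.15, FDR 0.000539). Of 9 inhibitors 5 were called at 6 days, beside the same 30.2%, with ZC3H12A, DUSP1 and TOLLIP higher in ISF and IRAK3 and SIGIRR lower. TICAM1 was also called higher in ISF at 96 hours (0.51, SE 0.15, FDR 0.0149) and 10 days (0.46, SE 0.16, FDR 0.0267). Of 7 transcription factors 1 was called at 96 hours, 6 days and 10 days, beside 10.5%, 30.2% and 20.8% of all genes. Nothing is read from this count. The gene was IRF8, a transcription factor of monocytes, dendritic cells and B cells, each time lower in ISF, with -0.41, -0.56 and -0.88 (FDR 0.0157, 0.000184 and 4.62e-07).

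Genes that LPS is known to induce in macrophages were called in both directions. Of 13 tested entries from a list of 18, 0 were called between the fluids at 48 hours, 2 at 96 hours (both higher in ISF), 5 at 6 days (4 were higher and 1 lower) and 3 on day 10 (2 were higher and 1 lower), with medians of -0.04, 0.05, 0.37 and 0.00. These are 0%, 15.4%, 38.5% and 23.1% of the tested entries, beside 1.68%, 10.5%, 30.2% and 20.8% of all genes. At 96 hours the called genes were the chemokine CCL3 (1.71, SE 0.43, FDR 0.00448) and the adhesion molecule ICAM1 (1.10, SE 0.20, FDR 8.2e-05). The chemokine CXCL8 had the highest fold change among those called at 6 days (2.42, SE 0.45, FDR 2.76e-05) and 10 days (2.81, SE 0.48, FDR 1.28e-05), where its mean was 65.3 ± 40.1 GeTMM (SD, n = 7) in ISF and 11.1 ± 9.92 (SD, n = 7) in SF. CCL5, a chemokine that T cells also make, was the lowest called at both times (-1.29, SE 0.51, FDR 0.0479, and -1.53, SE 0.55, FDR 0.0373). The summed T cell markers given above were lower in ISF as well, and their part in the difference of CCL5 was not tested.

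The genes whose pattern over the 68 libraries was most like that of a member are given as a description, by Pearson's r of log2(GeTMM + 1), in libraries that share horses, times and fluids. For TLR8 this was ITGAX, which encodes CD11c (r = 0.879), and for TLR2 they were PLK3 (0.742) and VAV1 (0.689). TLR3 was most like GABRR3 (0.913) and VAMP4 (0.909), and TLR6 most like DRA, an MHC class II gene (0.803), and CEBPD (0.78). TLR7 had no close match (CXXC5, 0.593, and the collagen gene COL4A1, 0.592), whereas TLR9 was most like MYO5B and TYR (both 0.735). The CD14 entry ENSECAG00000001784 was most like the other CD14 entry (0.879) and KIFC3 (0.867), and the entry ENSECAG00000031960 was most like HYDIN (0.912). LY96 was most like SUPT4H1 (0.881) and GTF2A2 (0.821), and MYD88 most like HNRNPUL1 (0.914) and STK10 (0.904).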

How the data were processed

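BMNC of 8 horses were sequenced in 68 libraries (9 groups). The authors trimmed the stranded paired-end reads, mapped them to EquCab 3.0 with STAR 2.7.2a, counted them per gene (the strand setting is not given in the sources used here) and deposited GeTMM, an RPKM-like value: reads per kilobase scaled between libraries.

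Here, log2(GeTMM + 1) of the 14570 genes that reached 0.5 GeTMM in 7 or more libraries was fitted with limma 3.58.1 (R 4.3.3), two-sided, with 9 groups and no term for horse, in 16 comparisons with Benjamini-Hochberg adjustment. Whole reads, within 0.02 of a whole number, were recovered for 99.9958% of genes above 0. On these reads limma voom called 4286 genes between fluids at 6 days. Intervals and floors would cover counting error only. The script was tested on simulated data.

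Fluids came from the same animals, and deviations of libraries of the same horse correlated (mean 0.283, different horses -0.051), so a fit with a term for horse was an alternative. Other alternatives were the pseudocount, filters, library weights and scaling, and leaving out horses or libraries. Members and lists were chosen with earlier results of these data known. Named besides the members are the highest and lowest called gene of the TLR pathway and LPS-induced lists per fluid comparison, and the 2 genes most like each member. TICAM1, SLC15A4, UNC93B1, PIK3AP1, ZC3H12A, DUSP1, TOLLIP, IRAK3, IRF8, SPP1, MSR1, GPNMB and TLR1 were named after their values were seen. Marker lists were macrophage, T cell, plasmacytoid dendritic cell, neutrophil precursor, fibroblast or stromal and erythroid (erythroid sum 76.2 to 1230 GeTMM at 0 hours and at most 1.53 at 10 days). Another marker list and the second gene most like TLR8 are not reported here.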

Additional observations from a re-analysis of the deposited data

Results flagged for a closer look

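In groups of 7 or 8 libraries, a single library stood apart from the others by Dixon's criterion in 16 of 90 groups tested. The rate of about 1 in 20 set by this criterion holds for independent and normally distributed values. GeTMM was used here without logs and the groups share horses, so no excess over chance is read from this count. For TLR7, the SF libraries of Lurie were high at 96 hours (40.9 GeTMM, others 7.29 to 18.9), 6 days (65.9, others 3.90 to 28.5) and 10 days (67.6, others 12.2 to 31.7), and the same horse was high for TLR8 in SF at 96 hours (35.7, others 13.4 to 20.6). For TLR9, the ISF libraries of Moon were high at 6 days (6.62, others 0.384 to 2.45) and 10 days (5.27, others 0.295 to 1.69).

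For the CD14 entry ENSECAG00000001784, Ollie was high at 0 hours (1.27, others 0.118 to 0.392) and in SF at 96 hours (1.31, others 0.323 to 0.775), Lurie in ISF at 48 hours (2.72, others 0.389 to 1.22) and RimRun in SF at 10 days (4.89, others 1.02 to 1.85). For the CD14 entry ENSECAG00000031960, Dealings was high in ISF at 96 hours (1.82, others 0.351 to 0.912). For LY96, Ollie was high at 0 hours (171, others 50.2 to 95.1), RimRun in ISF at 48 hours (212, others 84.1 to 129) and Moon in SF at 6 days (335, others 46.1 to 103), while Dealings was low in SF at 48 hours (82.0, others 180 to 248). For MYD88, Moon was low in SF at 6 days (15.6, others 94.6 to 139).

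The fluid difference of TLR7 changed between 48 hours and 10 days by a test of that change itself, with -1.92 on the log2 scale (limma, FDR 0.0344).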

How the results depend on the processing

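Of 94 single results, 53 were called, 29 of them under every alternative fit, and 0 called results changed sign. With the replicate block, a term for horse that pairs the fluids, no call was lost. The change of the fluid difference then gave 2 members over the span starting at 48 hours (7.52% of all genes) and 3 over that starting at 6 days (1.85%). The cause of the changes below was not tested.

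Shares of all genes called in the same fit stand in brackets, and none is given for the fold limit or the added CD14 entries. Between fluids, library weights gave 2 members at 48 hours (15.3% of all genes) and 7 at 96 hours (28.9%). At 96 hours no filter (5.17%), omission of the ISF libraries of Dealings and Dreamer (6.18%), or a fold limit (absolute log2 fold change of 1 or more) gave 2. A fit of only the groups compared gave 3 at 6 days (13.7%, against 30.2% in the main fit). In ISF from 0 to 48 hours a pseudocount of 0.1 gave 5 (51.3%) and a fit of only those groups 6 (58.9%). From 48 to 96 hours library weights gave 6 (33.9%), and no filter (10.7%), omission of those libraries (13.6%) or the fold limit gave 1. From 96 hours to 6 days library weights (15.2%), or omission of the SF library of Moon at 6 days (11.5%), gave 4. The pseudocount (5.81%), no filter (2.95%), only those groups (7.23%) or voom (6.07%) gave 1. The fold limit or CD14 entries added together (chosen after seeing the data) also gave 1. From 6 to 10 days only those groups gave 1 (8.5%) and the fold limit 0. In SF the fold limit gave 2 between 48 and 96 hours, 0 in the next interval and 3 over the 10 days. No filter (0.989%), only those groups (0.419%) or omission of that library of Moon (1.41%) gave 0 in that interval from 96 hours to 6 days. In the last interval only those groups gave 0 (0.0206%) and that omission 1 (2.19%). For the change from 48 hours to 10 days no filter gave 0 (1.52%), and only those groups (3.96%) or library weights (11.3%) 2. For that from 6 to 10 days library weights (1.39%) or omission of that library (0.679%) gave 1.

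Leaving out each horse in turn gave 0 to 0, 1 to 4, 6 to 8 and 4 to 6 members between fluids in order of time, 2 to 4, 1 to 4, 1 to 3 and 0 to 2 in ISF intervals, 2 to 3, 2 to 5, 0 to 1 and 1 to 2 in SF intervals, 7 to 9 from 0 hours to 10 days in each fluid, and 0 to 3 and 0 to 1 for the changes of the difference. The shares of all genes moved too: between fluids they were 0.515% to 4.95%, 6.05% to 17.2%, 24.6% to 35.6% and 13.3% to 28.0% in order of time.

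Signs turned only in uncalled results: TLR9 at 48 hours (-0.12 without Flash, 0.14 without Dealings), MYD88 at 48 hours (-0.00 without Catnip, 0.13 without RimRun), TLR7 at 96 hours (-0.02 without Moon, -0.16 without Ollie, -0.01 without RimRun, 0.26 without Catnip), LY96 at 10 days (-0.01 with library weights, -0.09 without Dealings, -0.03 without Moon, 0.12 without Ollie), TLR9 in ISF to 10 days (0.05 without Dreamer, 0.06 without RimRun, -0.38 without Moon) and TLR2 in SF to 10 days (0.02 with the block, 0.02 without Flash, 0.01 without Ollie). A fit of only the groups compared also ended the calls at 6 days of TLR2, TLR3, TLR7 and MYD88 (FDR 0.0612, 0.0614, 0.17 and 0.126). That fit called 13.7% of all genes, against 30.2% in the main fit. Low read counts limit what can be said of CD14 at 0 hours, with at most 23 reads in a library, and of TLR4.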
